A study of Mus musculus with 11 samples.

Results

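The platelet-derived growth factor (PDGF) ligands and receptors were followed in mammary fibroblasts sorted from normal glands and from 3 stages of tumour development. The family was taken as 7 genes: the ligands Pdgfa, Pdgfb, Pdgfc and Pdgfd, the receptors Pdgfra and Pdgfrb, and the receptor-like gene Pdgfrl. They were chosen by name, each was measured by exactly 1 probe set that carried no other gene symbol, and they are 7 of the 19938 genes tested.

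PDGFs are secreted as dimers of A, B, C or D chains and signal through the receptor tyrosine kinases PDGFRα and PDGFRβ, which drive growth, migration and survival of mesenchymal cells. The A and C chains act mainly through PDGFRα and the D chain mainly through PDGFRβ, while the B chain binds both. In most tissues fibroblasts carry PDGFRα, pericytes and smooth muscle cells carry PDGFRβ, and the ligands come from epithelium, endothelium, platelets and macrophages as well as from mesenchymal cells.

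Each of the 11 Affymetrix arrays held RNA of 1 cohort of pooled female mice. The normal group (2 arrays, D2 and D5) was FVB/n mammary tissue taken at 8 weeks. The tumour groups came from MMTV-PyMT mice, in which a viral promoter drives the polyoma middle T oncogene in mammary epithelium, with hyperplasia at 4 weeks (3 arrays, D6, D7 and D12), carcinoma at 9 weeks (3 arrays, D3, D4 and D10) and advanced carcinoma, called late carcinoma in the labels, at 12 weeks (3 arrays, D8, D9 and D11). Cells of all groups were sorted as positive for CD140a, the protein that Pdgfra encodes, and negative for the macrophage antigen encoded by Adgre1. The labels add that the cells were EpCAM-negative, whereas the methods name an EpCAM stain only for sorts made for later validation, so whether EpCAM was part of this gate is not settled. The sort therefore selected on 1 of the members, and the Pdgfra level describes cells that had already passed that gate. Among the tumour groups stage and age rose together and cannot be told apart. The MMTV-PyMT mice were FVB/n mice carrying the transgene, and the normal mice were not transgenic. Every comparison with normal glands alone therefore also differs in genotype and age, and these cannot be told apart from stage.

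The values are log2 expression, as the authors normalised and summarised them. Normal D2 and advanced carcinoma D11 added up, in each of 35399 probe sets, to 2 times the mean taken over the remaining 9 (median gap 3.33e-06), so that only 10 columns of values were independent. Carcinoma D4 also stood apart, being the lowest of the 11 arrays for 21.8% of all genes and the highest for 19.6%. Values are therefore given with and without these arrays. Having 2 or 3 arrays a stage set the precision of every value.

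The CAF arrays (carcinoma and advanced carcinoma, 6 arrays) were first compared with normal and hyperplasia together (5 arrays), the division that separates tumour-associated fibroblasts from the earlier stages. Pdgfa rose and Pdgfd fell in CAFs, and neither gene overlapped between the groups, as was true of 14.9% of all genes. The remaining 5 members did not pass the threshold, an adjusted p under 0.05 by limma with Benjamini-Hochberg adjustment over all genes. The 2 members called stood against 24.9% of all genes called in this comparison, so the count alone did not set the family apart. The median change of the 7 members was -0.26 on the log2 scale, against -0.038 for all genes, and it was 0.023 without carcinoma D4.

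**Figure D1:**
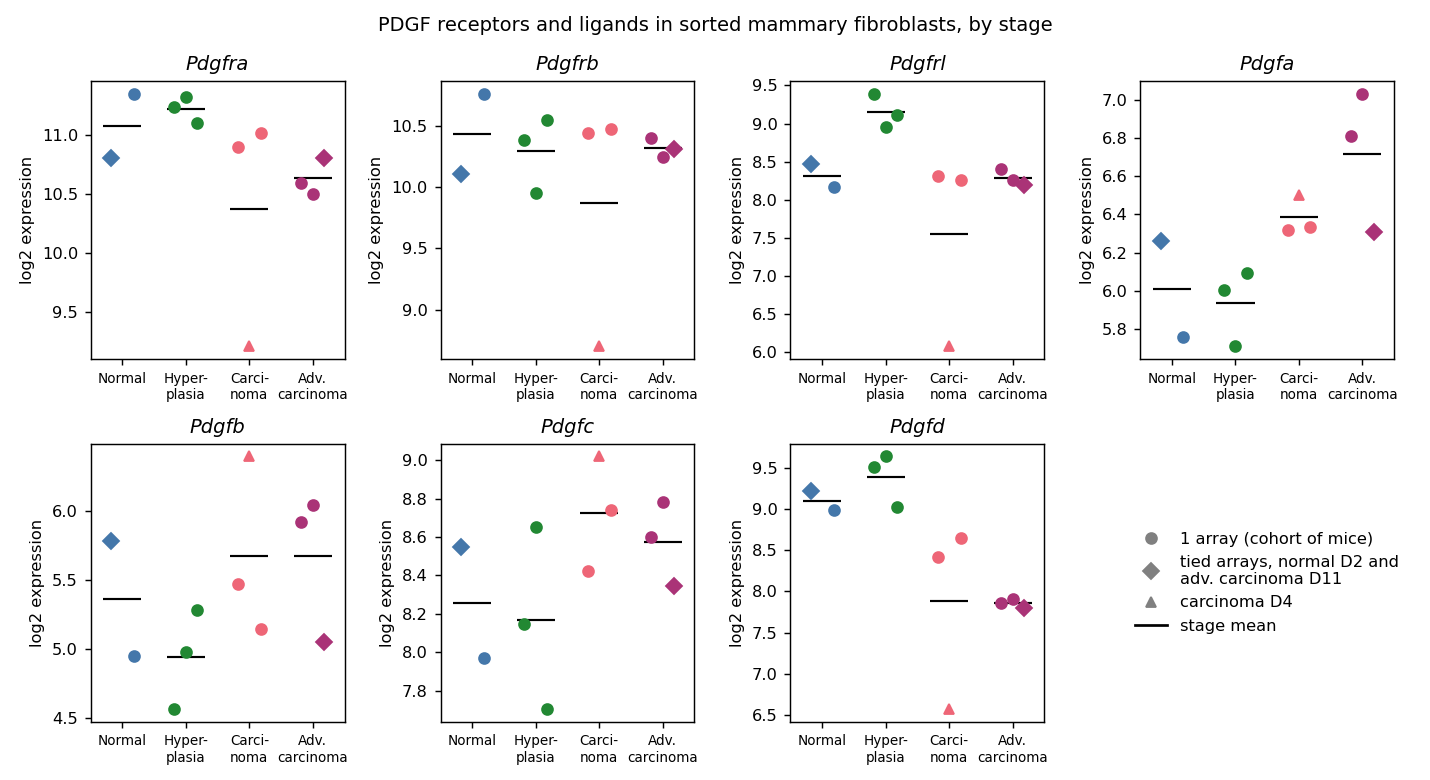
Log2 expression of each member (vertical axis, a separate scale in each panel) in every array, by stage (horizontal axis), with diamonds for normal D2 and advanced carcinoma D11, triangles for carcinoma D4 and lines for stage means. Pdgfa was higher and Pdgfd lower in all 6 CAF arrays than in all 5 others, and carcinoma D4 was the lowest array for Pdgfra, Pdgfrb, Pdgfrl and Pdgfd.

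Pdgfa, which encodes the A chain, a ligand of PDGFRα, was measured at 6.26 and 5.76 in normal D2 and D5, and at 6.01, 5.71 and 6.09 in hyperplasia D6, D7 and D12. In carcinoma D3, D4 and D10 it was 6.32, 6.5 and 6.34, and in advanced carcinoma D8, D9 and D11 it was 6.81, 7.03 and 6.31. Every CAF array was thus above every other array, by a narrow margin at the tied pair D2 and D11, and D8 and D9 were the highest. The mean rose from 5.96 ± 0.23 (SD, n = 5) to 6.55 ± 0.30 (SD, n = 6), a log2 difference of 0.59 (standard error 0.15, 1.5-fold, limma adjusted p = 0.0176). The difference was 0.71 without normal D2 and advanced carcinoma D11 (adjusted p = 0.0187 by limma) and 0.60 without carcinoma D4 (adjusted p = 0.0247). Carcinoma D4, which departed from carcinoma D3 and D10 for most members, lay only 0.17 above their mean for Pdgfa.

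Pdgfd encodes the D chain, a ligand of PDGFRβ that is secreted in a latent form and cut to become active. It was measured at 9.22 and 8.99 in normal D2 and D5 and at 9.51, 9.64 and 9.02 in hyperplasia D6, D7 and D12. It then stood at 8.42, 6.57 and 8.66 in carcinoma D3, D4 and D10, and at 7.86, 7.91 and 7.80 in advanced carcinoma D8, D9 and D11. The advanced carcinoma arrays lay close together, all CAF arrays were below all others, and carcinoma D4 was the lowest. The mean fell from 9.28 ± 0.29 (SD, n = 5) to 7.87 ± 0.72 (SD, n = 6), a log2 difference of -1.41 (standard error 0.31, 2.65-fold lower, limma adjusted p = 0.00898). Without carcinoma D4 the difference was -1.15 (adjusted p = 0.00239 by limma), and without the tied arrays it was -1.41 (adjusted p = 0.0342). Among the members Pdgfd had the largest change in the fit on all 11 arrays, and it moved in the direction opposite to Pdgfa.

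The bases upstream of Pdgfa and Pdgfd are shown because these were the members that changed and because they differ in composition. RefSeq on build GRCm38.p6 lists 2 starts for Pdgfa and 1 for Pdgfd, and the 250 bases before the more upstream Pdgfa start (chr5:138994945-138995194, minus strand) and before the Pdgfd start (chr9:6168236-6168485, plus strand) are printed 5′ to 3′ on the strand of the gene. Capitals mark matches, on either strand, to the motifs searched: GGGCGG (GC box), TATAAA (a form of the TATA box), TGANTCA (AP-1 site), CANNTG (E-box) and ACGTG (the core of the hypoxia response element, which overlaps the CACGTG form of the E-box).
Pdgfa: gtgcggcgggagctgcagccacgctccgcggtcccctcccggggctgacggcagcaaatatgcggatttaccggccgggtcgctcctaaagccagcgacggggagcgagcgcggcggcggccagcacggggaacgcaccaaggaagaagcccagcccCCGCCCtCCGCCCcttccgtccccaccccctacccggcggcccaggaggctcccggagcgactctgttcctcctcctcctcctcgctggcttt
Pdgfd: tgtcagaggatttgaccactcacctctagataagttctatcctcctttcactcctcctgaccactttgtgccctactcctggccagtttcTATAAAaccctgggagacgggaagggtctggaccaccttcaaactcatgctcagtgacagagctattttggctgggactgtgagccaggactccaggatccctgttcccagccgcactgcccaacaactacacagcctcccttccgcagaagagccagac

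The Pdgfa window was 72.4% G and C with 28 CpG dinucleotides, and the Pdgfd window 53.6% with 3, against medians of 52.4% and 6 over 32851 RefSeq windows of the same length. The Pdgfa window held 2 matches to GGGCGG, which is found in 32.7% of all windows. The Pdgfd window held 1 match to TATAAA, 160 bases before its start, and that motif is found in 12.4% of all windows. Neither window held TGANTCA (6.75% of windows), CANNTG (66.2%) or ACGTG (16.6%). No measurement of this series bears on these bases, and the matches are a description of letters only.

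Pdgfc encodes the C chain, another latent ligand of PDGFRα. Its values were 8.55 and 7.97 in normal D2 and D5, 8.15, 8.65 and 7.70 in hyperplasia D6, D7 and D12, 8.42, 9.02 and 8.74 in carcinoma D3, D4 and D10, and 8.60, 8.78 and 8.35 in advanced carcinoma D8, D9 and D11. The groups overlapped, although 3 of 6 CAF arrays exceeded all others and the highest was carcinoma D4. The log2 difference was 0.45 (standard error 0.18, 95% interval 0.055 to 0.84, limma adjusted p = 0.0892). It passed the threshold only in the fit without hyperplasia D7 (difference 0.56, adjusted p = 0.0480 by limma).

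Pdgfb encodes the B chain, which in many tissues is made by endothelium and platelets. It was measured at 5.79 and 4.95 in normal D2 and D5, 4.56, 4.98 and 5.29 in hyperplasia D6, D7 and D12, 5.47, 6.40 and 5.15 in carcinoma D3, D4 and D10, and 5.92, 6.05 and 5.05 in advanced carcinoma D8, D9 and D11. Carcinoma D4 was again the highest array, the groups overlapped, and the arrays of each stage were widely spread. The log2 difference was 0.56 (standard error 0.28, 95% interval -0.044 to 1.17, limma adjusted p = 0.158). Without the tied arrays Pdgfb rose by 0.85 (adjusted p = 0.0430 by limma), and without carcinoma D4 the difference was 0.42 (adjusted p = 0.266). Pdgfb was the only member below the level of the median gene, 5.64, under which genes were treated as dim.

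Pdgfra encodes PDGFRα, the antigen used in the sort. It was measured at 10.80 and 11.35 in normal D2 and D5, 11.24, 11.32 and 11.10 in hyperplasia D6, D7 and D12, 10.90, 9.21 and 11.01 in carcinoma D3, D4 and D10, and 10.60, 10.50 and 10.80 in advanced carcinoma D8, D9 and D11. Carcinoma D4 differed by -1.29 from the next lowest CAF array, and 4 of 6 CAF arrays were below all normal and hyperplasia arrays, so that only carcinoma D3 and D10 reached into their range. The log2 difference was -0.66 (standard error 0.28, limma adjusted p = 0.110). Without carcinoma D4 Pdgfra was lower by a smaller amount, -0.40, and passed the threshold (adjusted p = 0.0412 by limma). Fewer PDGFRα-expressing cells in a sorted pool and less Pdgfra RNA in each cell cannot be told apart in these bulk samples.

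Pdgfrb, the gene of the receptor for PDGF-BB and PDGF-DD, was measured at 10.11 and 10.76 in normal D2 and D5, 10.38, 9.95 and 10.55 in hyperplasia D6, D7 and D12, 10.44, 8.70 and 10.47 in carcinoma D3, D4 and D10, and 10.40, 10.25 and 10.31 in advanced carcinoma D8, D9 and D11. The mean of Pdgfrb over all 11 arrays was 10.21, against 10.80 for Pdgfra. Apart from carcinoma D4, the CAF arrays lay within the range of the other groups. The log2 difference was -0.26 (95% interval -0.93 to 0.42, limma adjusted p = 0.571), and it turned to 0.023 without carcinoma D4 (adjusted p = 0.922 by limma).

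Pdgfrl encodes a secreted protein that resembles the ligand-binding part of the PDGF receptors and has no kinase domain. It was measured at 8.47 and 8.16 in normal D2 and D5, 9.39, 8.96 and 9.11 in hyperplasia D6, D7 and D12, 8.32, 6.08 and 8.25 in carcinoma D3, D4 and D10, and 8.40, 8.26 and 8.19 in advanced carcinoma D8, D9 and D11. The hyperplasia arrays were the 3 highest of all, normal D2 was just above every CAF array and normal D5 below all of them but carcinoma D4, and carcinoma D4 was far below every other array. The log2 difference between CAFs and the rest was -0.90 (standard error 0.41, limma adjusted p = 0.130), and -0.54 without carcinoma D4 (adjusted p = 0.0786 by limma).

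**Figure D2:**
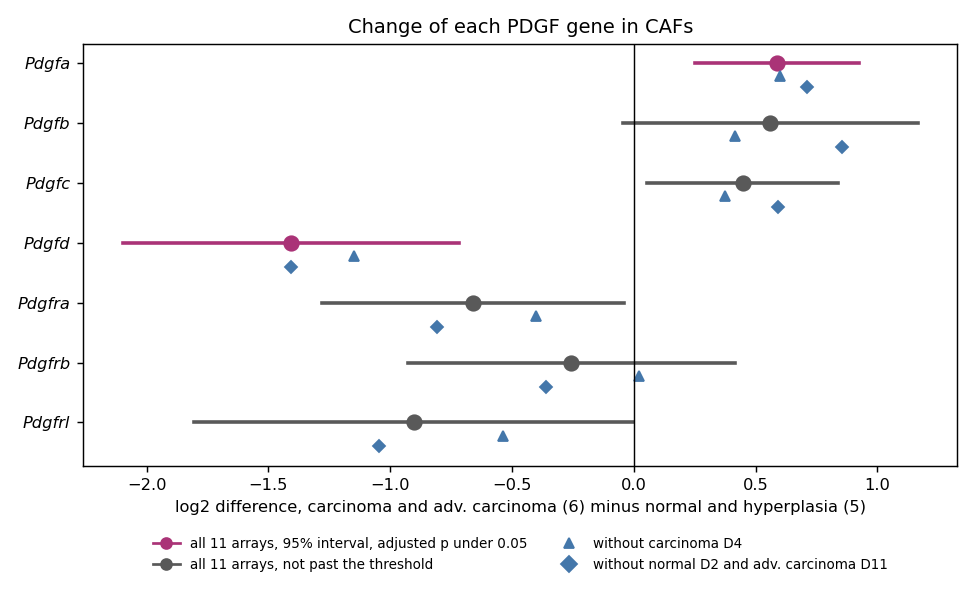
Log2 difference of each member between 6 CAF arrays and 5 normal and hyperplasia arrays (horizontal axis, circles with 95% intervals), with triangles for the fit without carcinoma D4 and diamonds for the fit without normal D2 and advanced carcinoma D11. Pdgfa (0.59) and Pdgfd (-1.41) passed the threshold in the fit on all 11 arrays, and Pdgfrb moved from -0.26 to 0.023 without carcinoma D4.

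The stages were then compared with each other in a single fit of 4 stages. Between advanced carcinoma and hyperplasia, 1 of 7 members passed, against 14.5% of all genes. This was Pdgfa, which was higher by 0.78 (standard error 0.20, 1.72-fold, limma adjusted p = 0.0299), with 3 of 3 advanced carcinoma arrays above all hyperplasia arrays, and 42.1% of all genes did not overlap between these stages. The call was lost with a term for the tied arrays (adjusted p = 0.0509 by limma) and in the fits without hyperplasia D6, hyperplasia D7, advanced carcinoma D8 or advanced carcinoma D9, which left 0 members called. Pdgfd was lower in all 3 advanced carcinoma arrays than in all hyperplasia arrays, by -1.54, and just missed the threshold (limma adjusted p = 0.0555). Pdgfrl differed by -0.87 and Pdgfra by -0.59, both without overlap and short of the threshold (limma adjusted p = 0.267 and 0.356). When carcinoma D4 was left out, 4 members passed, and the adjusted p by limma was 0.000334 for Pdgfd, 0.00139 for Pdgfrl, 0.0159 for Pdgfra and 0.0204 for Pdgfa at the same differences.

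No member passed between carcinoma and hyperplasia (9.25% of all genes called), although 3 had an unadjusted limma p under 0.05. Pdgfrl was lower in carcinoma by -1.61 (limma adjusted p = 0.0789), Pdgfd by -1.51 (0.0731), and Pdgfa was higher by 0.45 (0.174). None of these 3 genes overlapped between the stages, nor did Pdgfra (-0.85, limma adjusted p = 0.212), as was true of 30.4% of all genes. Without carcinoma D4 the Pdgfrl and Pdgfd differences were smaller, -0.87 and -0.85, and both passed (limma adjusted p = 0.0104 and 0.0226). Leaving out carcinoma D10 instead also left these 2 genes called.

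Against normal glands no member passed in advanced carcinoma (5.61% of all genes called) or in carcinoma (0.938%), and 2 and 1 members had an unadjusted limma p under 0.05. Pdgfd was lower than in normal glands by -1.24 in advanced carcinoma and by -1.22 in carcinoma (limma adjusted p = 0.193 and 0.259), and Pdgfa was higher by 0.71 and 0.38 (0.0965 and 0.396). Each of these differences held in every array of the stage, against only 2 normal arrays, and 48.0% and 33.7% of all genes likewise did not overlap. Without carcinoma D4, which is in neither group, Pdgfd passed between advanced carcinoma and normal glands (limma adjusted p = 0.00227). Without advanced carcinoma D11, Pdgfa did (0.91, limma adjusted p = 0.0457). These comparisons share the normal arrays, and those with hyperplasia share the hyperplasia arrays, so they are not separate evidence.

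No member was called between hyperplasia and normal glands (0% of all genes called, limma, and 0 members at an unadjusted p under 0.05). The widest gap was that of Pdgfrl, higher by 0.84 in hyperplasia with no overlap, as for 18.5% of all genes (limma adjusted p = 0.999). Its 95% interval was wide, from -0.43 to 2.11, so a large difference was not excluded. Advanced carcinoma and carcinoma likewise gave no call for any member or gene (0%, limma, and 0 members at an unadjusted p under 0.05). Ordered by stage mean, Pdgfa ran from advanced carcinoma through carcinoma and normal to hyperplasia, Pdgfd from hyperplasia through normal and carcinoma to advanced carcinoma, and Pdgfra and Pdgfrl from hyperplasia through normal and advanced carcinoma to carcinoma. Pdgfc and Pdgfb were ordered carcinoma, advanced carcinoma, normal, hyperplasia, and Pdgfrb normal, advanced carcinoma, hyperplasia, carcinoma. None of the 21 steps between neighbours in these orders passed the threshold, and the smallest adjusted p by limma was 0.259, for Pdgfd between normal and carcinoma.

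The threshold named in the methods, an unadjusted p under 0.05 together with a fold change above 1.5, added Pdgfra and Pdgfrl to Pdgfa and Pdgfd between CAFs and the rest (4 members, against 12.2% of all genes). It called Pdgfa and Pdgfd in advanced carcinoma against hyperplasia (13.0% of all genes) and against normal glands (10.6%), Pdgfd and Pdgfrl in carcinoma against hyperplasia (10.5%), and Pdgfd alone in carcinoma against normal glands (6.98%). No member met it between advanced carcinoma and carcinoma (0.727%).

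Carcinoma D4 split the family. Relative to the mean of carcinoma D3 and D10 it was lower by -1.75 for Pdgfra, -1.76 for Pdgfrb, -2.21 for Pdgfrl and -1.97 for Pdgfd. It was higher by 1.09 for Pdgfb and 0.44 for Pdgfc. The same array had the lowest fibroblast marker mean of the series, 9.38, where the other 10 arrays ranged from 10.56 to 11.30, and the highest luminal epithelial mean, 9.94. The part of other cell types in its PDGF values was not tested.

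The expression of other cell types' markers moved with the CAF comparison, in which 24.9% of all genes were called. All 10 macrophage markers rose, among them C1qb (2.52, limma adjusted p = 0.00303) and Lyz2 (2.83, 0.00350), with a list median of 2.20, and the mean of that list went from 4.63 to 6.04 in normal and hyperplasia to 6.12 to 8.26 in CAFs. Of 9 luminal markers 8 rose, including Wfdc18 (2.27, limma adjusted p = 0.000226) and Cldn3 (2.21, 0.000351), with a list median of 2.06 and list means from 6.70 to 8.23 in normal and hyperplasia and from 8.96 to 9.94 in CAFs. RNA of Epcam and of Adgre1, the antigen gated against, was among those that rose, Epcam from 6.02 to 8.01 in normal and hyperplasia to 8.69 to 9.91 in CAFs and Adgre1 from 3.73 to 5.07 to 5.18 to 7.66. Between advanced carcinoma and normal glands alone, 5.61% of all genes were called. There 0 macrophage markers passed the threshold, at a list median of 2.33, and 3 luminal markers rose. Pdgfa moved in the same direction as both lists, as did Pdgfb and Pdgfc short of the threshold, while the other 4 members moved down. Carcinoma D4 and advanced carcinoma D8 and D9 had the highest macrophage list means (7.77, 8.08 and 8.26). These arrays were also the highest for Pdgfa and for Pdgfb. The part of macrophages and luminal cells in the PDGF changes was not tested.

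**Figure D3:**
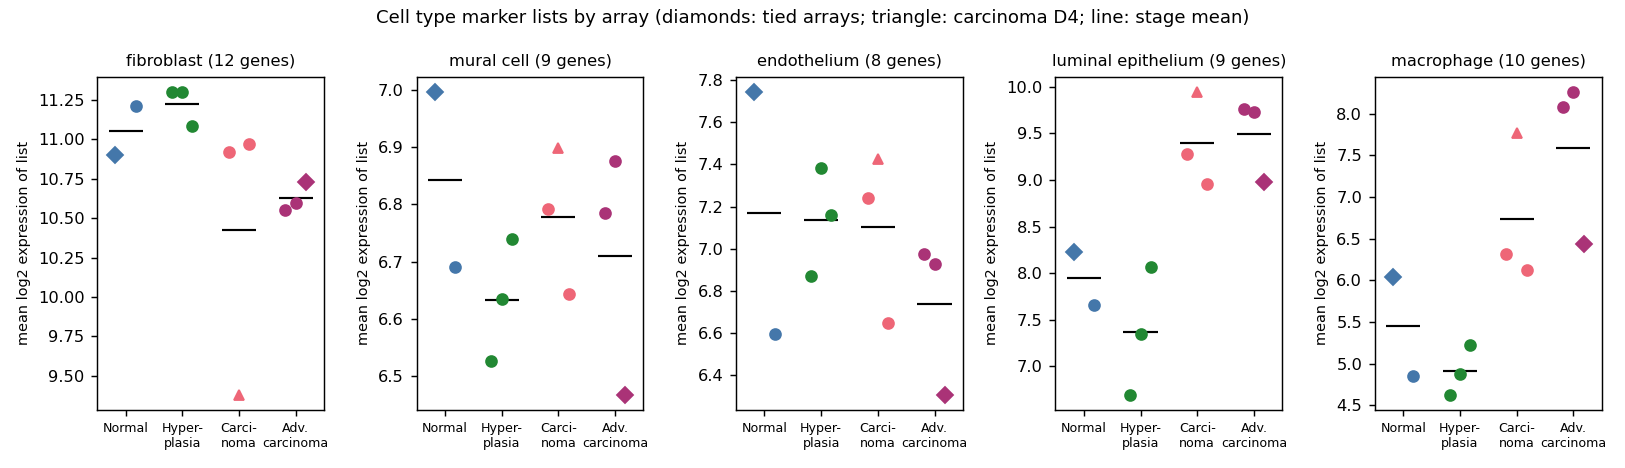
Mean log2 expression of 5 cell type marker lists (vertical axes, separate scales) in every array by stage, with diamonds for normal D2 and advanced carcinoma D11, a triangle for carcinoma D4 and lines for stage means. Luminal and macrophage list means were higher in every CAF array than in every other array, and the fibroblast list was lowest in carcinoma D4 (9.38).

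The other marker lists moved less or downwards, in a comparison that called 24.9% of all genes. In the fibroblast list 3 of 12 genes fell and none rose, Pi16 by 1.23, Dpp4 by 1.09 and Cd34 by 0.82 (limma adjusted p = 0.00698, 0.0132 and 0.0181), and 8 fell without carcinoma D4. The list median was -0.62 with carcinoma D4 included and smaller in size, -0.31, without that array. Of 9 markers of mural cells, a class that carries PDGFRβ, Mcam rose by 1.64 (limma adjusted p = 0.00109). Myh11 fell by 1.03 and Abcc9 by 0.46 (limma adjusted p = 0.0364 and 0.0413), around a list median of 0.14. With the term for the tied arrays only the rise stayed called. The mural list mean ranged from 6.47 to 6.90 in CAFs and from 6.53 to 7.0 in the rest. Of 8 endothelial markers 1 fell, Tek by 1.72 (limma adjusted p = 0.00524), with Vwf at -0.60 (0.114) and a list median of -0.21. Of 5 measured platelet markers 1 fell, Itga2b by 0.55 (limma adjusted p = 0.0156), with Pf4 at 0.85 (0.0862) and a list median of 0.024.

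Basal epithelial markers rose in 3 of 6 cases (Trp63 by 0.67, Krt5 by 1.55 and Krt14 by 1.31, limma adjusted p = 0.00474, 0.0156 and 0.0179), with a list median of 0.68. The counts in this and the following lists stand against 24.9% of all genes called. The mean of the basal list was 5.21 in hyperplasia, against 6.25 for normal, 6.21 for carcinoma and 6.09 for advanced carcinoma, so that the hyperplasia arrays alone were low. Between advanced carcinoma and normal glands, where 5.61% of all genes were called, 0 basal markers rose and 2 fell. Adipocyte markers fell in 4 of 6, Pparg (-1.02, limma adjusted p = 0.00211), Fabp4 (-1.36, 0.00701), Plin1 (-0.67, 0.0257) and Adipoq (-0.52, 0.0296), with a list median of -0.59, and Plin1 and Adipoq lost their calls without the tied arrays. T and NK cell markers fell in 4 of 8 (Cd8a -1.37, Cd2 -1.48, Cd4 -1.39 and Cd3e -1.66, limma adjusted p from 0.0291 to 0.0477) and B cell markers in 3 of 4 (Cd79b -1.31, Ms4a1 -1.34 and Cd79a -1.36, limma adjusted p from 0.0129 to 0.0468), with list medians of -1.38 and -1.33, and neither lymphocyte list had a call without the tied arrays. Both measured Schwann cell markers were called, Sox10 higher by 2.28 (limma adjusted p = 0.000416) and Mbp lower by -0.59 (0.0233), and the Mbp call was lost without the tied arrays.

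The proteases that cut PDGF chains changed in both directions. Of 9 measured, 4 rose and 2 fell, against 24.9% of all genes called, with a list median of 0.26. St14, the gene of matriptase, a membrane serine protease of epithelium, rose by 2.40 (limma adjusted p = 0.000930), from 4.94 to 6.85 in normal and hyperplasia to 8.01 to 9.26 in CAFs. Hpn, which encodes hepsin, a related membrane protease, rose by 0.65 (limma adjusted p = 0.000351). Its means, 4.40 in normal and hyperplasia and 5.05 in CAFs, were below the level of the median gene, 5.64. Furin, a convertase that processes growth factor precursors inside the cell, rose by 0.43 (limma adjusted p = 0.00579), and its relative Pcsk6 fell by 1.26 (0.00270). These 4 genes, which had the smallest p of the list, did not overlap between the groups, as was true of 14.9% of all genes. Without the tied arrays 4 rises and 2 falls were also counted. Plau, the gene of urokinase, which can activate the D chain, also fell, by 1.08 (limma adjusted p = 0.00695), and the convertase gene Pcsk7 rose by 0.34 (0.0121).

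Of 7 PDGF binding proteins and co-receptors, only Thbs1 passed, against 24.9% of all genes. Thbs1, the gene of thrombospondin-1, a matrix protein that binds growth factors, rose by 0.98 (limma adjusted p = 0.0139) from 8.72 to 10.40 in normal and hyperplasia to 10.09 to 10.53 in CAFs, so that the groups overlapped, and no gene of the list passed without the tied arrays. The list median was -0.28.

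Among the receptor-proximal signalling genes 22 of 25 were measured, of which 6 rose and 5 fell, against 24.9% of all genes called. The list median was -0.00051. The balance turned with the scaling, to 5 rises and 8 falls with arrays centred on their medians and to 9 rises and 5 falls after quantile normalisation. Over all genes, centring gave 1948 rises and 5114 falls, and quantile normalisation 2628 and 2715. Stat3, a transcription factor activated by many cytokine and growth factor receptors, rose by 0.67 (limma adjusted p = 0.00140). Pik3cb, a catalytic subunit of PI 3-kinase, rose by 1.92 (limma adjusted p = 0.00164), whereas the regulatory subunit gene Pik3r2 fell by 0.62 (0.00339). Plcg1, the phospholipase recruited to activated PDGF receptors, fell by 0.33 (limma adjusted p = 0.00232). Stat3, Pik3cb and Plcg1 did not overlap between the groups, as for 14.9% of all genes. Pik3r2 was below all others in 5 of 6 CAF arrays. The further rises were those of the regulatory subunit gene Pik3r1 (0.49), the adaptor Nck2 (0.48), Stat5a (0.50) and the Src-family kinase Yes1 (0.24), and the further falls those of the catalytic subunit gene Pik3ca (-0.26), Nck1 (-0.23) and the Src-family kinase Fyn (-1.0), with limma adjusted p from 0.00661 to 0.0379. Nck1 and Yes1 lost their calls without the tied arrays, and Nck2 and Stat5a lost theirs when any of several single arrays was left out, hyperplasia D7 among them.

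The 14 negative regulators gave 2 rises and 2 falls, against 24.9% of all genes called, with a list median of 0.015. Cblb, a ubiquitin ligase that targets activated receptors, fell by 0.69 (limma adjusted p = 0.00581) and did not overlap. Ptpn2, a tyrosine phosphatase, rose by 0.45 (limma adjusted p = 0.0114), and Dusp6, a phosphatase of ERK kinases that is itself induced by ERK signalling, rose by 0.70 (0.0314). Socs1 fell by 0.25 (limma adjusted p = 0.0432), from a mean of 4.77 to 4.52, both below the level of the median gene, 5.64. Socs1 lost its call in 16 of 23 alternatives and Dusp6 in 9 of 24, the fit without the tied arrays among both. With arrays centred on their medians, 2 rose and 6 fell. Of 10 early response genes 1 rose, Ier3 by 1.5 (limma adjusted p = 0.00108), with no overlap, and the list median was 0.22.

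The 3 related receptors of the same tyrosine kinase class were all called, against 24.9% of all genes, with a list median of 2.19. Kit, the receptor for stem cell factor, rose by 2.30 (limma adjusted p = 0.00181), and Csf1r, the macrophage growth factor receptor that also stands in the macrophage list, rose by 2.19 (0.00674). Flt3, a receptor of early blood cells, fell by 0.55 (limma adjusted p = 0.0157) and lost its call without the tied arrays. Its means, 5.40 in normal and hyperplasia and 4.85 in CAFs, were below the level of the median gene, 5.64. Of the 5 VEGF genes, which share the growth factor fold of the PDGF chains, only Pgf passed (list median -0.011), rising by 0.82 (limma adjusted p = 0.00573) from 4.90 to 5.53 in normal and hyperplasia to 5.77 to 6.55 in CAFs.

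**Figure D4:**
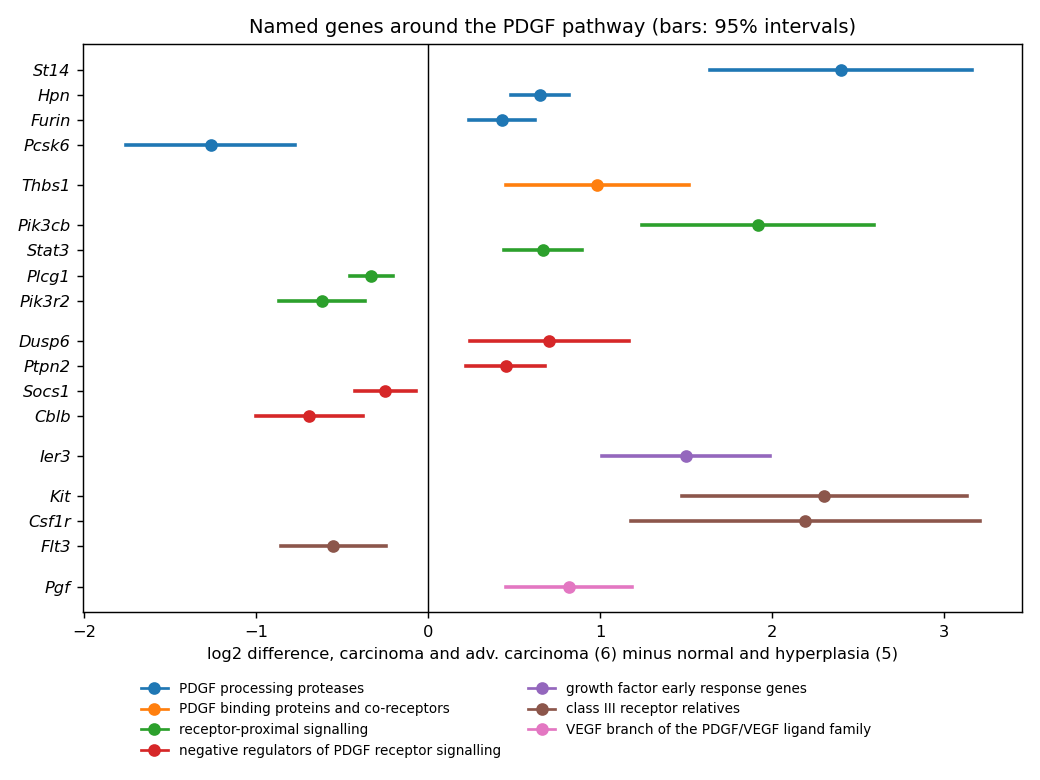
Log2 difference between 6 CAF arrays and 5 normal and hyperplasia arrays (horizontal axis, circles with 95% intervals) for up to 4 genes of each pathway list with the smallest p among those past the threshold, coloured by list. St14 (2.40), Kit (2.30), Csf1r (2.19) and Pik3cb (1.92) had the largest differences shown, and Pcsk6 (-1.26) the lowest.

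The genes whose pattern over the 11 arrays was most like that of each member were listed by Pearson's r, as a description over arrays of which 2 are tied. For Pdgfra these were Serpinf1 (r = 0.994), Medag (0.994) and Slfn5 (0.993), for Pdgfrb Frem1 (0.986), Colec12 (0.976) and Xxylt1 (0.975), and for Pdgfrl Hexa (0.985), C1qtnf6 (0.984) and Rab34 (0.972). Much of the likeness to Pdgfrb rested on carcinoma D4, without which r was 0.843 for Colec12 and 0.839 for Xxylt1 but 0.964 for Frem1. For Pdgfd they were Slc49a4 (0.990), Ctso (0.989) and Slc41a3 (0.988), with r from 0.976 to 0.982 without carcinoma D4. For Pdgfa they were Tmed4 (0.967), Poldip2 (0.967) and Rac3 (0.958), for Pdgfb Csf2rb (0.981), Ccr2 (0.977) and Retnla (0.973), and for Pdgfc Mtmr1 (0.931), Insr (0.893) and Tlr3 (0.882). The Pdgfa and Pdgfb values were between 0.970 and 0.986 without carcinoma D4.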

How the data were processed

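The deposited values are log2 expression of 35399 probe sets on Affymetrix Mouse Gene 1.0 ST arrays, which the authors obtained by RMA, a method that combines the probes of a set, in Partek 6.5. No source used here describes a step that would tie normal D2 to advanced carcinoma D11. Scanner images were left aside, and no genome build is given for the values. Probe sets were named from the platform annotation: 21789 carried 1 symbol, 1621 several and 11989 none. The brightest probe set per symbol by mean of 11 arrays gave 19938 genes.

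The tests used limma 3.58.1 (R 4.3.3), in a fit of 4 stages (7 residual degrees of freedom) or of CAFs against the rest (9), with Benjamini-Hochberg adjustment over all genes in each of 7 comparisons and a threshold of 0.05. P-values measure the spread between cohorts. The members and the 18 lists (155 symbols, 147 measured) were chosen with earlier results of these data known, so none of them is independent support. The remaining listed symbols are not reported here. The text names all members, of each pathway list up to 4 genes past the threshold with the smallest p, of each cell type list 2, and the 3 genes most alike to each member among genes at or above the median level, predicted genes, small RNAs and receptor gene segments left aside. Epcam, Adgre1 and the further genes of short called lists (Plau, Pcsk7, Pik3ca, Pik3r1, Nck1, Nck2, Fyn, Stat5a, Yes1, Cd34, Abcc9, Krt14, Plin1, Adipoq, Cd4, Cd3e, Cd79a) were chosen with their values known. The fits were tested on simulated data. Alternatives were array scaling, probe set choice, a filter on dim genes, other tests and thresholds, array weights, a term for or removal of the tied arrays, and each array left out. Promoter sequences are RefSeq's, 250 bases before each start, found for 4 of 7 members and printed for 2.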

Additional observations from a re-analysis of the deposited data

Results flagged for a closer look

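The CAF arrays and the rest were examined separately for 66 of the genes named in the report, 132 groups in all. The genes listed as most like each member were not among these. In 6 groups an array had a gap to the nearest other that was too wide a share of the group's range by Dixon's test. Chance gives this in about 1 of 20 groups, so 6 of 132 is no more than chance would give. Carcinoma D4 accounted for 4 of the 6. It was low among CAF arrays for Pdgfra (9.21, nearest 10.50), Pdgfrb (8.70, nearest 10.25) and Pdgfrl (6.08, nearest 8.19), and high for Mbp (7.01, nearest 6.35). Normal D5 was high for Thbs1 among normal and hyperplasia arrays (10.40, nearest 9.21). Carcinoma D10 was high for Plcg1 among CAF arrays (8.29, nearest 8.12).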

How the results depend on the processing

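Pdgfa and Pdgfd kept their direction and their call between CAFs and the rest in every alternative run, from 0.49 to 0.74 (limma adjusted p from 0.0124 to 0.0475) and from -1.56 to -1.08 (0.00129 to 0.0342). The bounds 0.74 and -1.08 come from a fit without normal D2, advanced carcinoma D11 and carcinoma D4, added after seeing the data. By the threshold of the methods, applied to limma p-values, 4 members were called between CAFs and the rest. It called 2 in advanced carcinoma against normal, 1 in carcinoma against normal, 2 in carcinoma against hyperplasia and 2 in advanced carcinoma against hyperplasia. Array weights called 2 members in advanced carcinoma against normal, 2 in carcinoma against hyperplasia and 4 in advanced carcinoma against hyperplasia. Fits on 2 stages alone called 1 in advanced carcinoma against normal and 4 in advanced carcinoma against hyperplasia. Without the tied arrays and carcinoma D4, 5 members were called in advanced carcinoma against hyperplasia and 2 in carcinoma against hyperplasia. That fit left 1 normal array, so no member count against normal glands is given for it. Every other fit without normal D2 or D5 also held 1 normal array, on which its counts against normal glands rest. In advanced carcinoma against hyperplasia, median-centred arrays and the removal of dim genes each called 2, and one-way ANOVA contrasts and the term for the tied arrays 0. With each array left out in turn, 0 to 1 members were called in advanced carcinoma against normal, 0 to 2 in carcinoma against hyperplasia and 0 to 4 in advanced carcinoma against hyperplasia. In advanced carcinoma against normal, 3908 of all genes were called with array weights and 2852 on 2 stages alone, against 1118 reported. The causes of these shifts were not tested. Pdgfrb between CAFs and the rest ran from -0.36 to 0.023 with each array left out, and changed direction without carcinoma D4. Of the other recomputed gene values, 1633 kept direction and side of the threshold, 204 lost a call and 48 gained one. Centring arrays on their medians moved the median change of all genes between advanced carcinoma and hyperplasia from -0.043 to -0.17, and turned the calls between CAFs and the rest from 2402 higher and 2559 lower to 1948 and 5114. Over the alternatives with the adjusted threshold, all-gene counts ran from 3332 to 7062 between CAFs and the rest (4961 reported), 892 to 6237 between advanced carcinoma and hyperplasia (2897), 27 to 3908 between advanced carcinoma and normal (1118), 5 to 2937 between carcinoma and hyperplasia (1845), 0 to 857 between carcinoma and normal (187), 0 to 10 between hyperplasia and normal (0) and 0 to 1301 between advanced carcinoma and carcinoma (0). No paired analysis was possible because the array numbers are not shared between groups. Arrays this few leave changes undetected, and the wide intervals do not exclude large ones.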
